A study of Mus musculus with 12 samples.

Results

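The genes described here mark megakaryocytes and platelets, 8 of the 24411 genes in the table: Itga2b, Itgb3, Gp1bb, Gp9, Vwf, Pf4, Treml1 and Fli1. They were taken by symbol, by a choice made with earlier results of these data known. Total RNA was sequenced in 12 libraries, with 4 treatments of 24 h in triplicate: 2 nM GSK-LSD1 together with 50 nM ruxolitinib (the combination), GSK-LSD1 alone, ruxolitinib alone, and the solvent DMSO. GSK-LSD1 blocks the histone demethylase LSD1 and ruxolitinib the kinases JAK1 and JAK2. All groups were made of BALB/c mouse bone marrow cells carrying retrovirally introduced mutant CSF3R, the receptor for granulocyte colony-stimulating factor, and mutant CEBPA, a myeloid transcription factor. They were cultured in IMDM medium with 20% FBS. The labels do not say whether the cells were a clone or whether libraries of a treatment came from separate cultures, so p-values measure the spread between these libraries, which may be technical.

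Megakaryocytes are the bone marrow cells that shed platelets. As they mature, GATA1, RUNX1, TAL1, NFE2 and ETS factors such as FLI1 switch on the platelet adhesion receptors, granule proteins and the tubulin used for platelet release. The integrin αIIbβ3 (Itga2b, Itgb3) binds fibrinogen, and the GPIb-IX-V complex (Gp1ba, Gp1bb, Gp9, Gp5) binds von Willebrand factor (Vwf). LSD1 works in blood cells as a cofactor of the repressors GFI1 and GFI1B, and GFI1B is needed for platelet production.

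The values were read counts per gene, scaled per library by the authors, and are called normalised counts. The scaled libraries each held 8260995 to 8528400 units of their smallest step, taken as 1 read. Ruxolitinib replicate 2 (-19.7) and combination replicate 3 (-17.3) stood apart from their groups on the second principal component, which held 11.1% of the variance. The myeloid genes that the cells should carry were present: 10 of 10 on a list led by Cebpa, Mpo and Prtn3 passed the minimum mean of 10 normalised counts used for testing. Their sum was 29873 to 34820 with the combination, 23049 to 24165 with GSK-LSD1, 27242 to 33606 with ruxolitinib and 23217 to 24200 with DMSO. Values of genes with near-identical copies are treated as uncertain here. Gapdh averaged 36.5 normalised counts, against 32269 for Actb, 8976 for Rplp0 and 3423 for B2m, and 4 globin genes were listed at 0. The reason for the low values was not tested.

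The 8 genes ranged widely in level. Per kb of exon, Itga2b averaged 359 normalised counts over the 12 libraries, Fli1 304, Itgb3 193 and Pf4 96.4. Gp1bb followed at 3.74, Vwf at 0.615, Gp9 at 0.469 and Treml1 at 0.0590. Per kb, Itga2b was at 355 ± 14.4 and Fli1 at 315 ± 41.9 with the combination, and Itga2b at 342 ± 19.3 and Fli1 at 317 ± 2.75 with GSK-LSD1 (SD, n = 3). Their libraries overlapped with the combination and lay apart by a small gap with GSK-LSD1. With ruxolitinib Itga2b (389 ± 27.4) stood clear of Fli1 (280 ± 5.68), as it did with DMSO (349 ± 11.9 for Itga2b, 304 ± 13.001 for Fli1). Vwf and Gp9, which rested on few reads, could not be placed in an order. Of the 8 genes 4, Itga2b, Itgb3, Pf4 and Fli1, passed the minimum mean and were tested. The other 4 are given by their values.

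**Figure D1:**
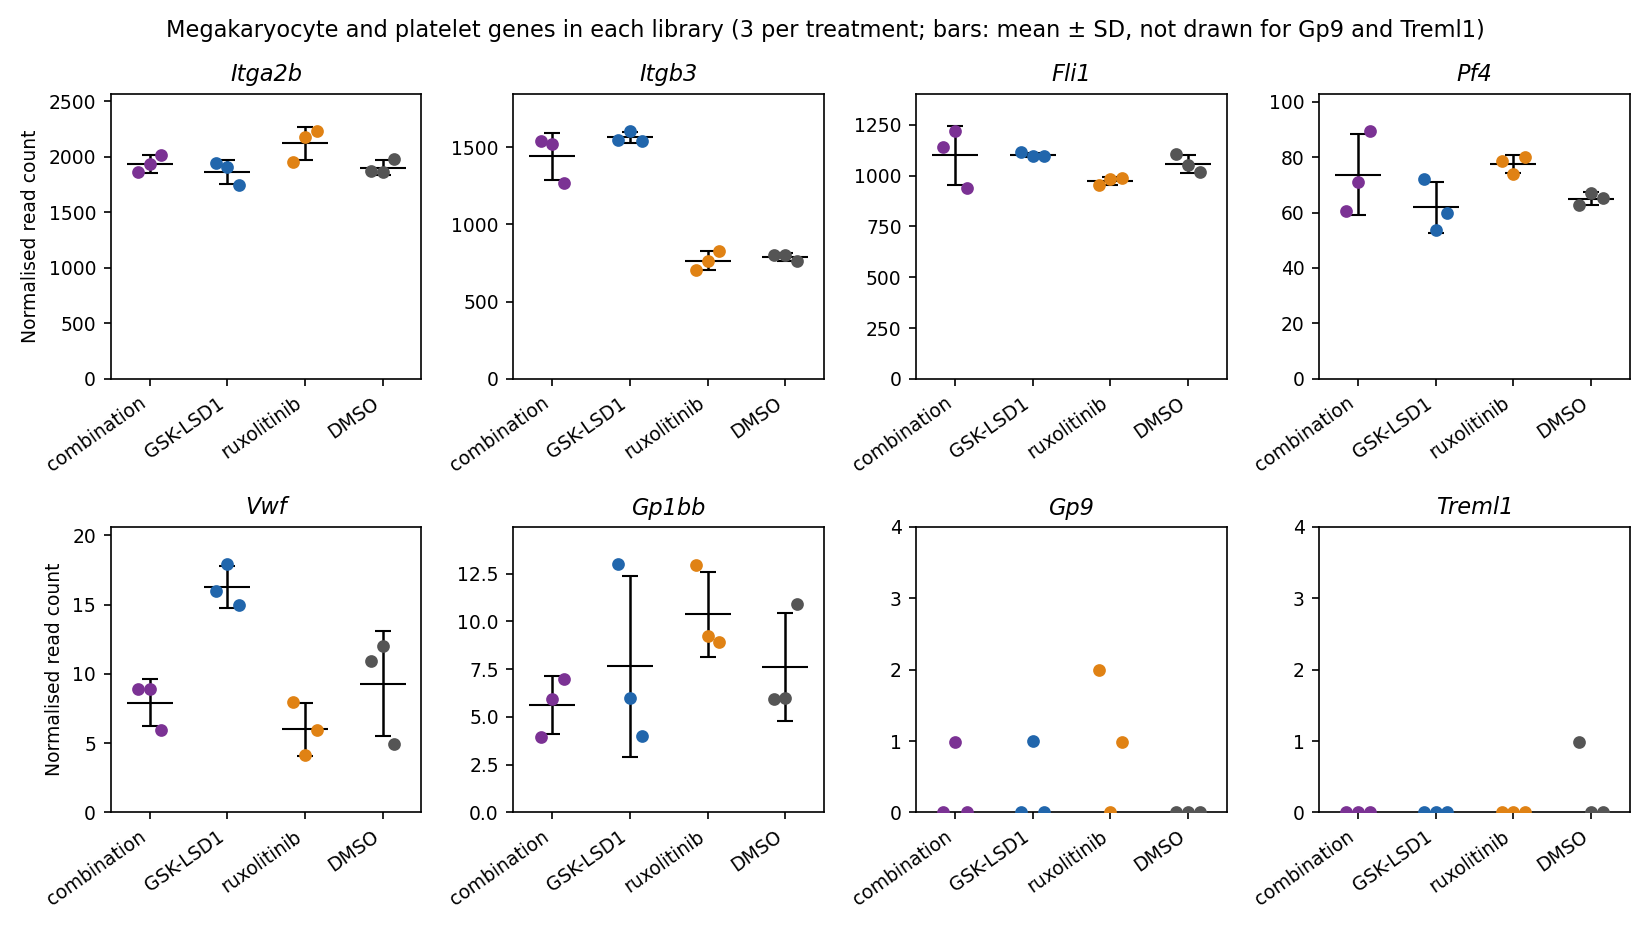
Normalised read counts (linear axes from 0, a separate scale per gene) of the 8 genes in each of 12 libraries, by treatment. Points are libraries and bars mean ± SD; Itgb3 lies between 1266 and 1606 in the 6 libraries with GSK-LSD1 and between 705 and 826 in the 6 without, while Gp9 and Treml1 stay at or below 1.99.

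A single tested member changed against DMSO: Itgb3, the integrin β3 chain, which was about doubled by GSK-LSD1 with or without ruxolitinib. Itgb3 (ENSMUSG00000020689.4; GRCm38 chromosome 11, 104608000 to 104670476, plus strand) had 1539, 1520.2 and 1266 normalised counts with the combination. It had 1548, 1606 and 1541 with GSK-LSD1, 705, 764 and 826 with ruxolitinib, and 804, 802 and 760.5 with DMSO. The libraries with GSK-LSD1 lay above all those without it, and those with ruxolitinib overlapped those with DMSO. How many of all genes have libraries lying apart between treatments was not counted. Here and below, libraries said to lie apart or to overlap only describe the values. The log2 fold change against DMSO was 0.86 ± 0.07 for the combination (SE; 95% interval 0.71 to 1.02; adjusted p = 8.355e-09) and 0.99 ± 0.07 for GSK-LSD1 (0.83 to 1.14; adjusted p = 1.586e-09; limma over 11484 genes, Benjamini-Hochberg). For ruxolitinib it was -0.05 ± 0.07 (-0.20 to 0.11; adjusted p = 0.784). In bulk RNA, a change in the share of cells that make a transcript and a change in RNA per cell cannot be told apart.

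Itgb3 was likewise higher with the combination than with ruxolitinib (0.91 ± 0.07, adjusted p = 5.069e-09) and with GSK-LSD1 than with ruxolitinib (1.03 ± 0.07, adjusted p = 7.048e-10). The combination libraries all lay just below the GSK-LSD1 libraries, a difference of -0.12 ± 0.07 that missed the test (interval -0.28 to 0.03; adjusted p = 0.529). The lowest of the combination libraries was replicate 3, which stood apart on the second component. The interaction, the departure of the combination from additive drug effects on the log2 scale, was -0.08 ± 0.10 (interval -0.29 to 0.14; adjusted p = 0.9995). The 4 calls for Itgb3 held in all 24 alternatives run for each, including the fit without both libraries that stood apart.

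Itga2b, the αIIb chain that pairs only with β3, did not pass the test against DMSO in any treatment. Itga2b (ENSMUSG00000034664.13; chromosome 11, 102453297 to 102470122, minus strand) had 1862, 1933 and 2019 normalised counts with the combination and 1941, 1909 and 1745 with GSK-LSD1. It had 1954, 2181 and 2236 with ruxolitinib, and 1869.95, 1864 and 1979 with DMSO. The libraries of each treated group overlapped those of DMSO, and the ruxolitinib libraries were on average the highest. The log2 differences from DMSO were 0.02 (interval -0.11 to 0.16) for the combination, -0.03 (-0.16 to 0.10) for GSK-LSD1 and 0.16 (0.02 to 0.29; adjusted p = 0.2035) for ruxolitinib. Directly compared, Itga2b was lower with GSK-LSD1 than with ruxolitinib, with separate libraries (-0.19 ± 0.06, adjusted p = 0.0336). That call was not stable: leaving out GSK-LSD1 replicate 2 or 3 gave an adjusted p of 0.0608 or 0.186, and leaving out ruxolitinib replicate 2 or 3 gave 0.0870 or 0.118. With all libraries it was also lost with no minimum mean (0.0530), with only the groups compared (0.0511), with no variance trend (0.0833) and with the replicate block and GC correction (0.0574). The combination against ruxolitinib missed the test (-0.13 ± 0.06, adjusted p = 0.1195) and passed without ruxolitinib replicate 1 (-0.19 ± 0.06, adjusted p = 0.0355).

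Read against the table as a whole, these counts say little about the 8 genes together. Against DMSO, 1 of 4 tested members was higher with the combination and 1 of 4 with GSK-LSD1, and none was lower. Among all tested genes 42.3% passed with the combination (20.5% higher, 21.8% lower) and 32.5% with GSK-LSD1 (17.0% higher, 15.5% lower). With ruxolitinib no member passed, where 1.63% of all genes did (1.00% higher, 0.627% lower). By limma 1 of the 4 had an unadjusted p under 0.05 there, Itga2b, where 2012 of the 11484 tested genes did. With the combination and with GSK-LSD1 against DMSO 1 of the 4 did, Itgb3, where 5699 and 4810 tested genes did. One of 4 passed for the combination against ruxolitinib, where 31.6% of all genes passed, and 2 of 4 for GSK-LSD1 against ruxolitinib, where 25.4% passed. By limma 2 of the 4 had an unadjusted p under 0.05 in the first, where 4820 tested genes did. In the second, 4 of the 4 had an unadjusted p under 0.05, where 4311 tested genes did. None passed for the combination against GSK-LSD1 (1.40% of all genes) or in the interaction (0.00871%), and none of the 4 had an unadjusted p under 0.05 in either. Of all tested genes 1407 and 534 had one. In a limma F-test for any difference among the 4 treatments, Itgb3 alone of the 4 members passed (adjusted p = 6.092e-11), where 42.8% of all genes did. Without ruxolitinib replicate 1, 2 of the 4 members passed the F-test, and without combination replicate 3, 3 passed. Of the 11484 tested genes, 4125 to 5327 passed it when a single library was left out. The comparisons share their DMSO or single-drug libraries and are not independent of each other. The median log2 change of the 4 tested members was 0.10 for the combination, 0.01 for GSK-LSD1 and 0.05 for ruxolitinib, against -0.01, -0.00 and -0.00 for all tested genes.

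**Figure D2:**
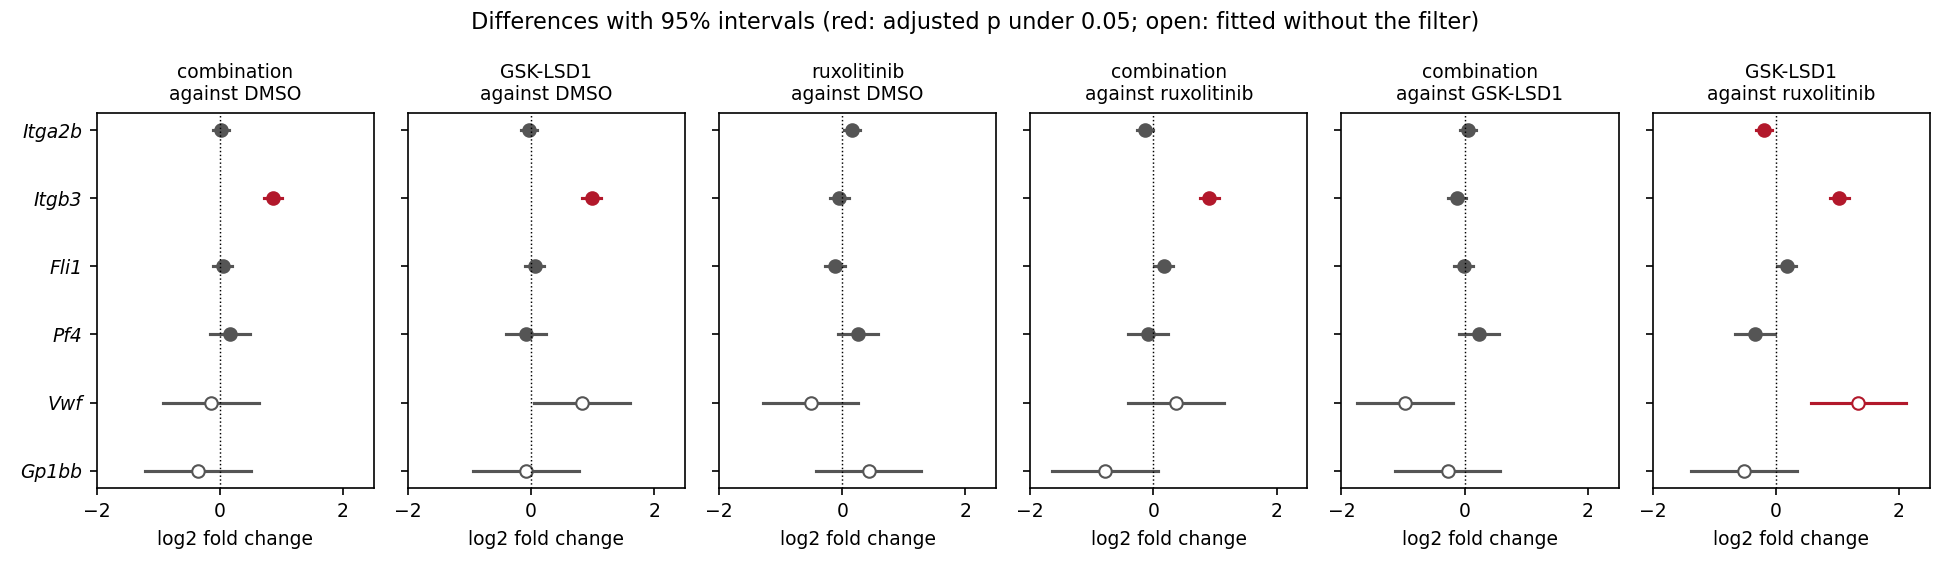
Log2 fold changes (first-named treatment over the second) with 95% intervals for the 6 members with reads in all 12 libraries, in 6 comparisons. Red marks an adjusted p under 0.05 and open points the 2 members fitted without the minimum mean; Itgb3 lies near 1 in the 4 comparisons of a treatment that holds GSK-LSD1 with a treatment that lacks it.

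The β3 chain also pairs with αV (Itgav), so the balance of the 3 chain genes was set out per exon length. Itgav, whose product with β3 forms the vitronectin receptor, fell where Itgb3 rose. Itgav had 1315, 1397 and 1070.1 normalised counts with the combination, 1591, 1842 and 1627 with GSK-LSD1, 1937, 1574 and 2029 with ruxolitinib, and 2206, 2209.6 and 2053 with DMSO. All libraries of every treated group lay below those of DMSO, and the combination libraries lay lowest. The log2 change from DMSO was -0.78 ± 0.09 for the combination (adjusted p = 8.524e-07) and -0.36 ± 0.09 for GSK-LSD1 (adjusted p = 0.00531). For ruxolitinib it was -0.23 ± 0.09 and missed the test (adjusted p = 0.196).

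As a ratio per exon length, Itgb3 to Itga2b stood at 0.690 ± 0.0976 with the combination, 0.777 ± 0.0396 with GSK-LSD1, 0.333 ± 0.00879 with ruxolitinib and 0.383 ± 0.0246 with DMSO (SD, n = 3). The ratio of Itgb3 to Itgav was 2.09 ± 0.0937 with the combination, 1.69 ± 0.0954 with GSK-LSD1, 0.763 ± 0.112 with ruxolitinib and 0.667 ± 0.00709 with DMSO. No library with GSK-LSD1 overlapped a library without it on either ratio. Per exon length Itga2b stayed above Itgb3 in all 12 libraries. Another platelet α chain, Itga2, which pairs with β1 as a collagen receptor, was higher in the 2 treatments with GSK-LSD1, at 51.2 ± 4.77 normalised counts with the combination and 82.7 ± 19.9 with GSK-LSD1, against 11.02 ± 1.59 with ruxolitinib and 16.6 ± 5.43 with DMSO. Its log2 change from DMSO was 1.62 ± 0.24 for the combination (adjusted p = 1.712e-05) and 2.27 ± 0.24 for GSK-LSD1 (adjusted p = 3.789e-07). Its partner Itgb1, named after its values were seen, had log2 differences of -0.12 for the combination and -0.04 for GSK-LSD1 and passed in neither (adjusted p = 0.108 and 0.671).

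**Figure D3:**
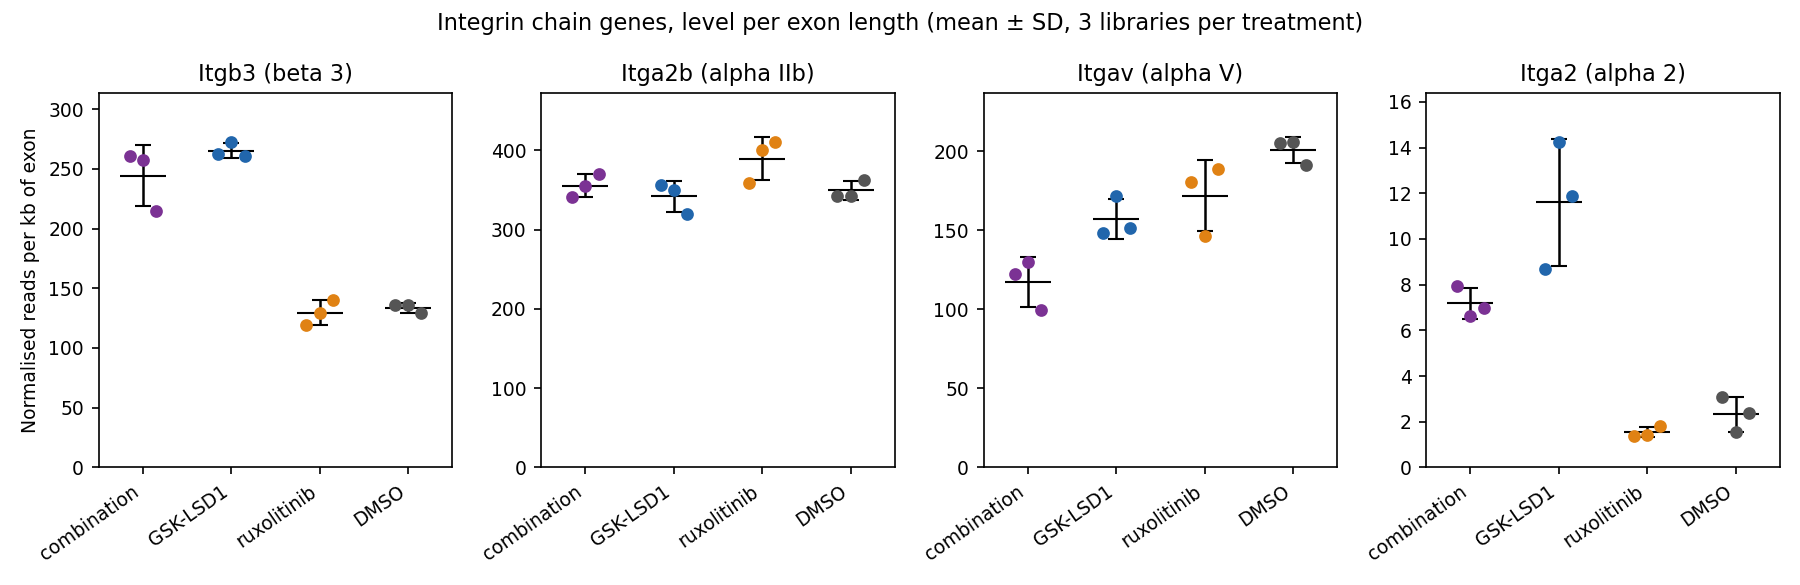
Normalised reads per kb of exon (linear axes from 0, a separate scale per gene) of the β3 chain gene, its 2 α partners and Itga2, in each library by treatment, with mean ± SD. Itgb3 averages 244 and 265 with the combination and GSK-LSD1 against 134 with DMSO, Itga2b averages between 342 and 389 in all groups, and Itgav averages 117 with the combination against 201 with DMSO.

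The GPIb-IX-V genes had few reads. Gp9 (chromosome 6, 87778072 to 87779768, plus strand), the small subunit that stabilises the complex, had 0.986 normalised counts in 1 combination library, 0.995 in 1 GSK-LSD1 library, and 1.99 and 0.988 in 2 ruxolitinib libraries, and was listed at 0 in the other 8 libraries. A count of 0 allows up to 3 reads, or 2.96 to 3.08 normalised counts in a library, so all values of Gp9 lay under that limit and no fold was drawn from them. Gp1bb, the β subunit of GPIb, had 3.97, 5.92 and 6.96 normalised counts with the combination, 12.99, 5.97 and 3.99 with GSK-LSD1, 12.9, 9.25 and 8.89 with ruxolitinib, and 5.96, 6.002 and 10.9 with DMSO. Each treated group overlapped DMSO. Its exons (chromosome 16, 18620317 to 18622403, minus strand) overlap exons of Sept5 and Gm49601 on the same strand, so these few reads cannot be assigned to Gp1bb with certainty.

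Of the other subunits, Gp1ba, which carries the von Willebrand factor site, was the most abundant, at 48.2 ± 9.04 normalised counts with the combination, 49.9 ± 5.37 with GSK-LSD1, 51.5 ± 5.13 with ruxolitinib and 35.1 ± 1.54 with DMSO. Each treated library lay above each DMSO library. Gp1ba passed with GSK-LSD1 (0.49 ± 0.17, adjusted p = 0.0355), and missed with the combination (0.43 ± 0.17, adjusted p = 0.0503) and with ruxolitinib (0.54 ± 0.17, adjusted p = 0.1125). The GSK-LSD1 call for Gp1ba was lost when any single GSK-LSD1 library (adjusted p = 0.133, 0.0507 and 0.0659 without replicates 1, 2 and 3) or DMSO library (0.0585, 0.0759 and 0.0967) was left out. It was also lost with all libraries after quantile normalisation (0.26, adjusted p = 0.288) and with no minimum mean (adjusted p = 0.0749). For the combination, Gp1ba ranged over its alternatives from 0.15 to 0.51 (adjusted p = 0.0198 to 0.523). It passed in 4 of 23 alternatives, one of them without combination replicate 1 (adjusted p = 0.0449). Gp5 had 9.86 to 10.9 normalised counts with the combination, 5.97 to 11.99 with GSK-LSD1, 6.16 to 8.89 with ruxolitinib and 6.95 to 9.90 with DMSO, under the minimum for testing.

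Vwf, the ligand of this complex and a granule protein of megakaryocytes and endothelium, averaged 9.88 normalised counts, just under the minimum of 10. Vwf (chromosome 6, 125546774 to 125686679, plus strand) had 8.93, 8.88 and 5.97 normalised counts with the combination, 15.99, 17.9 and 14.96 with GSK-LSD1, 7.96, 4.11 and 5.93 with ruxolitinib, and 10.9, 12.003 and 4.95 with DMSO. The GSK-LSD1 libraries lay above every other library, and the combination, ruxolitinib and DMSO libraries overlapped. Fitted with no minimum over 17044 genes, Vwf differed by -0.14 ± 0.37 for the combination against DMSO (adjusted p = 0.835) and by 0.82 ± 0.37 for GSK-LSD1 against DMSO (adjusted p = 0.1335). GSK-LSD1 against ruxolitinib passed there (1.34 ± 0.37, adjusted p = 0.0188), in a fit where 15.5% of all genes passed. That call was lost without GSK-LSD1 replicate 2 (adjusted p = 0.0710), without ruxolitinib replicate 2 (adjusted p = 0.0799) and without ruxolitinib replicate 2 and combination replicate 3 together (adjusted p = 0.0664). Of 19 endothelial markers 16 averaged under 10, and Cdh5, Kdr, Emcn, Cldn5, Mmrn2 and Ptprb were listed at 0 in all libraries. Pecam1, which leukocytes also express, made up 96.7% of their sum, which was 3872 to 3944 normalised counts with the combination, 3611 to 3868 with GSK-LSD1, 2962 to 3466 with ruxolitinib and 3050 to 3134 with DMSO. Their part in the values of Vwf was not tested.

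Pf4, platelet factor 4, a chemokine stored in α-granules, was detected in every library. Pf4 (chromosome 5, 90772435 to 90773383, plus strand) had 60.5, 71.0 and 89.5 normalised counts with the combination, 71.9, 53.7 and 59.8 with GSK-LSD1, 78.6, 74.0 and 80.04 with ruxolitinib, and 62.6, 67.0 and 65.4 with DMSO. The ruxolitinib libraries lay above those of DMSO, a description with no count over all genes beside it, and the other treated groups overlapped DMSO. None of its differences from DMSO passed: 0.16 ± 0.16 for the combination, -0.08 ± 0.16 for GSK-LSD1 and 0.25 ± 0.16 for ruxolitinib (adjusted p = 0.428, 0.7355 and 0.422). GSK-LSD1 lay below ruxolitinib in all libraries, by -0.33 ± 0.16, and missed the test (adjusted p = 0.126), but passed after quantile normalisation (-0.46 ± 0.16, adjusted p = 0.0365). Ppbp, which encodes another platelet chemokine, had 12.8 to 17.9 normalised counts with the combination, 14.96 to 21.9 with GSK-LSD1, 14.4 to 26.7 with ruxolitinib and 18.0 to 21.8 with DMSO. Ppbp passed in no comparison with DMSO, except lower with the combination after quantile normalisation (-0.70, adjusted p = 0.0407). Treml1 (chromosome 17, 48359916 to 48367176, plus strand), a receptor kept in α-granules until platelets are activated, had 0.993 normalised counts in 1 DMSO library and was listed at 0 in the other 11.

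Fli1, the ETS factor that drives many platelet genes, was well expressed and nearly level. Fli1 (chromosome 9, 32422204 to 32542861, minus strand) had 1139.6, 1221 and 938 normalised counts with the combination and 1115, 1099 and 1098 with GSK-LSD1. It had 952, 984 and 988 with ruxolitinib, and 1106, 1054 and 1016 with DMSO. The ruxolitinib libraries lay below those of DMSO, while combination replicate 3 lay below all other libraries. The differences from DMSO were 0.05 ± 0.08 for the combination, 0.06 ± 0.08 for GSK-LSD1 and -0.12 ± 0.08 for ruxolitinib, and none passed (adjusted p = 0.651, 0.574 and 0.429). The combination against DMSO depended on that library: without combination replicate 3, Fli1 was higher by 0.16 ± 0.06 (adjusted p = 0.0470), and without it and ruxolitinib replicate 2 by 0.16 ± 0.06 (adjusted p = 0.0219). Without combination replicate 3, Fli1 was also higher with the combination than with ruxolitinib (0.28 ± 0.06, adjusted p = 0.00133) and with GSK-LSD1 than with ruxolitinib (0.18 ± 0.06, adjusted p = 0.0163). Both missed the test in the main fit with all libraries (0.16 and 0.18, adjusted p = 0.0998 and 0.0841). With all libraries the first passed after quantile normalisation (adjusted p = 0.0410), the GC correction (0.0295) and the replicate block with GC correction (0.0298). The second passed with only the groups compared (adjusted p = 0.0454). An antisense gene model, Gm27201, overlaps Fli1 without sharing an exon, and whether counting used strand is not given in the sources used here.

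Among the 8394 tested genes with a mean of at least 100, those whose pattern over the 12 libraries was most like Itgb3 were Ssh2, Tnfaip1 and Slc37a3 (Pearson r = 0.995, 0.994 and 0.992). Most like Itga2b were Spns2, Cst7 and Slit3 (0.957, 0.922 and 0.882). For Pf4 they were Chchd5, Zfp746 and Rpl32 (0.942, 0.9075 and 0.886), and for Fli1 Ube2j1, Tmem106b and Crybg3 (0.914, 0.8798 and 0.875). The 12 points share library and treatment, so these values describe likeness and are not tests. No member was among the genes named for another member. Of the members, only Itga2b, Itgb3 and Fli1 had the mean of at least 100 needed to be named, so nothing is concluded from that.

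The promoters of 5 of the 8 genes were matched in the RefSeq promoter table (GRCm38.p6), and 4 are shown to set 2 expressed genes, Itga2b and Pf4, beside 2 that were at or near 0, Gp9 and Treml1. Each run holds the 250 bases before the start that RefSeq gives the gene, read 5′ to 3′ on the gene's strand: Itga2b at chr11:102469884-102470133 (minus), Pf4 at chr5:90772185-90772434 (plus), Gp9 at chr6:87777820-87778069 (plus) and Treml1 at chr17:48359666-48359915 (plus). The RefSeq start of Itga2b lies inside the GENCODE gene given above, so most of its window is within that gene. Capitals mark matches, on either strand. The letters searched for ETS factors were AGGAAG and, as another form, CGGAAG. Those for GATA factors were AGATAA and, as another form, TGATAA. GFI1 factors were searched as the letters AAATCA, and RUNX factors were searched as the letters TGTGGT. No match overlapped another.
Itga2b: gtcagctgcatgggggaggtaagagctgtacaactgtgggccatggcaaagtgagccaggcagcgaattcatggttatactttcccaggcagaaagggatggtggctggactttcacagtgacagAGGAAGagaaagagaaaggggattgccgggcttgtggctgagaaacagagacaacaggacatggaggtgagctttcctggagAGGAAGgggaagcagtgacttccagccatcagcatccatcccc
Pf4: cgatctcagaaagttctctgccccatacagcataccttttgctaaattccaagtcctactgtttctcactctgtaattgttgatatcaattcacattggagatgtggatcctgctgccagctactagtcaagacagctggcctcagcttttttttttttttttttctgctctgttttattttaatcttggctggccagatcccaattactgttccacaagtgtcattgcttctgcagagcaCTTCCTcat
Gp9: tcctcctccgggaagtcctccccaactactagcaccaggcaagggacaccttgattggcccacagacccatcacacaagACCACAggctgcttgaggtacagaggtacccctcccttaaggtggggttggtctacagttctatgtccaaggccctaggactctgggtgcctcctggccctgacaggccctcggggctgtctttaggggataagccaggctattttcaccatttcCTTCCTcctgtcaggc
Treml1: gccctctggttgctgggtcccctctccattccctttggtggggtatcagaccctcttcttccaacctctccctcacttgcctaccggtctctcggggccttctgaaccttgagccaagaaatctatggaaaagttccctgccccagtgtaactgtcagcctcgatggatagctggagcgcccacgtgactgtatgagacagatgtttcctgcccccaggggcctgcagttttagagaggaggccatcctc

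Itga2b held AGGAAG at 2 places, 125 to 120 and 43 to 38 bases before the RefSeq start, and Pf4 held its reverse complement at 9 to 4 bases. Gp9 held the reverse complement of AGGAAG at 16 to 11 bases and that of TGTGGT at 171 to 166 bases, and Treml1 held no match. Gp1bb, whose window lies in Sept5, held the reverse complement of CGGAAG at 90 to 85 bases and is not printed. None of the 5 windows held the letters searched for GATA or GFI1 factors. Other forms of these sites were not searched, so the windows cannot be said to lack GATA or GFI1 sites. Of 32851 promoters of the same length, 39.2% held an ETS match, 16.6% a GATA, 14.0% a RUNX and 12.4% a GFI1 match.

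Beyond the 8 genes, 200 genes of megakaryocyte and platelet function were grouped in 5 lists, and 166 passed the minimum. Of these, 64 were higher and 20 lower with the combination than with DMSO (38.6% and 12%), where 20.5% and 21.8% of all genes were. With GSK-LSD1, 55 were higher and 18 lower (33.1% and 10.8%), where 17.0% and 15.5% of all genes were. The medians were 0.12 for the combination and 0.08 for GSK-LSD1, against -0.01 and -0.00 for all tested genes. Without ruxolitinib replicate 2 and combination replicate 3 the counts were 70 higher and 28 lower with the combination, and 66 higher and 28 lower with GSK-LSD1. For these counts, and for the leave-out counts of the single lists below, no share over all genes in the same fit is given. They are therefore not compared with the shares of all genes in the main fit. With ruxolitinib 5 were higher and 1 lower (3.01% and 0.602%; median 0.04), where 1.00% and 0.627% of all genes were. That count was 0 higher without ruxolitinib replicate 2, DMSO replicate 2 or DMSO replicate 3, 1 without DMSO replicate 1, 3 without any of the GSK-LSD1 replicates, and 11 without combination replicate 3. The calls over all tested genes, in either direction, moved too, from 187 with all libraries to 551 without combination replicate 3. They were 41 without ruxolitinib replicate 2, and 58, 69 and 32 without DMSO replicates 1, 2 and 3.

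Several genes of mature megakaryocytes were at or near 0, chosen here after their values were seen apart from Tubb1 and Gp6. Tubb1 (the platelet β-tubulin), Gp6 (the collagen receptor), Mmrn1 (the granule protein multimerin), Myl9, Gng11, Pde3a and Sdpr were among 9 of the 200 genes listed at 0 in all 12 libraries, where 7367 of the 24411 genes in the table were. The share at 0 was thus lower in the lists than in the table, and 166 of the 200 genes passed the minimum. Clec1b, the podoplanin receptor, had 6 reads summed over the combination libraries, 4 with GSK-LSD1, 5 with ruxolitinib and 6 with DMSO, taking the smallest step of a library as 1 read.

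Of 28 tested receptor and adhesion genes, 12 were higher and 4 lower with the combination (42.9% and 14.3%, against 20.5% and 21.8% of all genes). With GSK-LSD1 12 were higher and 2 lower (42.9% and 7.14%, against 17.0% and 15.5% of all genes). The lower count with GSK-LSD1 was 1 without GSK-LSD1 replicate 2 or 3 or DMSO replicate 1 or 3. Fcgr2b, an Fc receptor of myeloid cells, had 1566 ± 133 normalised counts with the combination, 1549 ± 84.9 with GSK-LSD1, 779 ± 71.4 with ruxolitinib and 764 ± 21.6 with DMSO (log2 change from DMSO 1.03 ± 0.07 and 1.02 ± 0.07 for the first 2, adjusted p = 5.769e-10 and 1.037e-09). Selp, P-selectin, reached 57.5 ± 13.7 with the combination and 55.2 ± 10.04 with GSK-LSD1, against 25.1 ± 2.28 with ruxolitinib and 27.5 ± 9.49 with DMSO (1.06 ± 0.23 and 1.02 ± 0.23, adjusted p = 0.000987 and 0.00214). Ptgir, the prostacyclin receptor, rose by 1.22 ± 0.14 with the combination (adjusted p = 7.019e-07) and 0.98 ± 0.14 with GSK-LSD1 (adjusted p = 2.232e-05), and Adora2a, an adenosine receptor, by 0.74 and 1.05 (adjusted p = 0.000624 and 2.489e-05). Both of these receptors restrain platelets. Jam3, a junction protein, fell by 0.87 with the combination (adjusted p = 0.000834) and had -0.26 with GSK-LSD1 (adjusted p = 0.3107).

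Of 32 tested granule genes, 12 were higher and 2 lower with the combination (37.5% and 6.25%, against 20.5% and 21.8% of all genes). With GSK-LSD1 12 were higher and 3 lower (37.5% and 9.38%, against 17.0% and 15.5% of all genes). The lower count with the combination was 1 without combination replicate 2 or DMSO replicate 2. Clu, clusterin, which many tissues secrete, stood at 2541 ± 497 normalised counts with the combination, 2464 ± 131 with GSK-LSD1, 499 ± 136 with ruxolitinib and 486 ± 40.1 with DMSO (2.37 ± 0.14 and 2.34 ± 0.14 against DMSO for the 2 treatments with GSK-LSD1, adjusted p = 3.135e-11 and 5.398e-11). Thbs1, thrombospondin 1, had 1787 ± 155 with the combination, 1069.6 ± 108 with GSK-LSD1, 424 ± 11.6 with ruxolitinib and 408 ± 68.6 with DMSO. Its log2 change was 2.14 ± 0.10 for the combination and 1.39 ± 0.10 for GSK-LSD1 (adjusted p = 4.385e-13 and 4.87e-10). F5, coagulation factor V, rose by 1.36 ± 0.09 and 0.99 ± 0.09. Angpt1, angiopoietin 1, which also marks stem cells, fell by 0.66 with the combination and by 0.65 with GSK-LSD1 (adjusted p = 4.591e-05 and 9.59e-05).

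Of 43 tested genes of integrin activation and signalling, 18 were higher and 4 lower with the combination (41.9% and 9.3%, against 20.5% and 21.8% of all genes). With GSK-LSD1 12 were higher and 3 lower (27.9% and 6.98%, against 17.0% and 15.5% of all genes). The lower counts were 7 and 6 without ruxolitinib replicate 2 and combination replicate 3. Src, the kinase bound to the β3 tail, reached 20.1 ± 0.493 normalised counts with the combination and 15.3 ± 2.901 with GSK-LSD1, against 7.37 ± 2.14 with ruxolitinib and 3.32 ± 1.152 with DMSO. Its log2 change was 2.33 ± 0.34 and 1.94 ± 0.34, from a level near the 3-read limit. Src passed the minimum mean only through the 2 groups where it was high, so its test is not used here. It is still among the higher genes counted above. Gnaq, the G protein that relays platelet agonists, rose by 1.2 ± 0.14 and 1.22 ± 0.14. Pla2g4a, the phospholipase that frees arachidonic acid, fell by 0.69 and 0.46 (adjusted p = 4.968e-06 and 0.000819), and Pik3cb, a phosphoinositide 3-kinase, by 0.42 and 0.30 (adjusted p = 4.846e-05 and 0.001999).

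Of 32 tested cytoskeleton genes, 13 were higher and 4 lower with the combination (40.6% and 12.5%, against 20.5% and 21.8% of all genes). With GSK-LSD1 9 were higher and 5 lower (28.1% and 15.6%, against 17.0% and 15.5% of all genes). The lower count with the combination was 2 without DMSO replicate 3, and 7 without ruxolitinib replicate 2 and combination replicate 3. Tpm4, a tropomyosin, stood at 946 ± 63.3 normalised counts with the combination, 1030.5 ± 68.3 with GSK-LSD1, 245 ± 37.7 with ruxolitinib and 311 ± 12.8 with DMSO, a log2 change of 1.60 ± 0.09 and 1.72 ± 0.09 for the 2 treatments with GSK-LSD1 (adjusted p = 1.47e-11 and 6.091e-12). Tuba8, an α-tubulin, fell to 412 ± 54.4 with the combination and 483 ± 69.9 with GSK-LSD1, against 851 ± 91.3 with ruxolitinib and 872 ± 15.6 with DMSO (-1.09 ± 0.10 and -0.86 ± 0.10, adjusted p = 2.046e-08 and 1.073e-06).

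**Figure D4:**
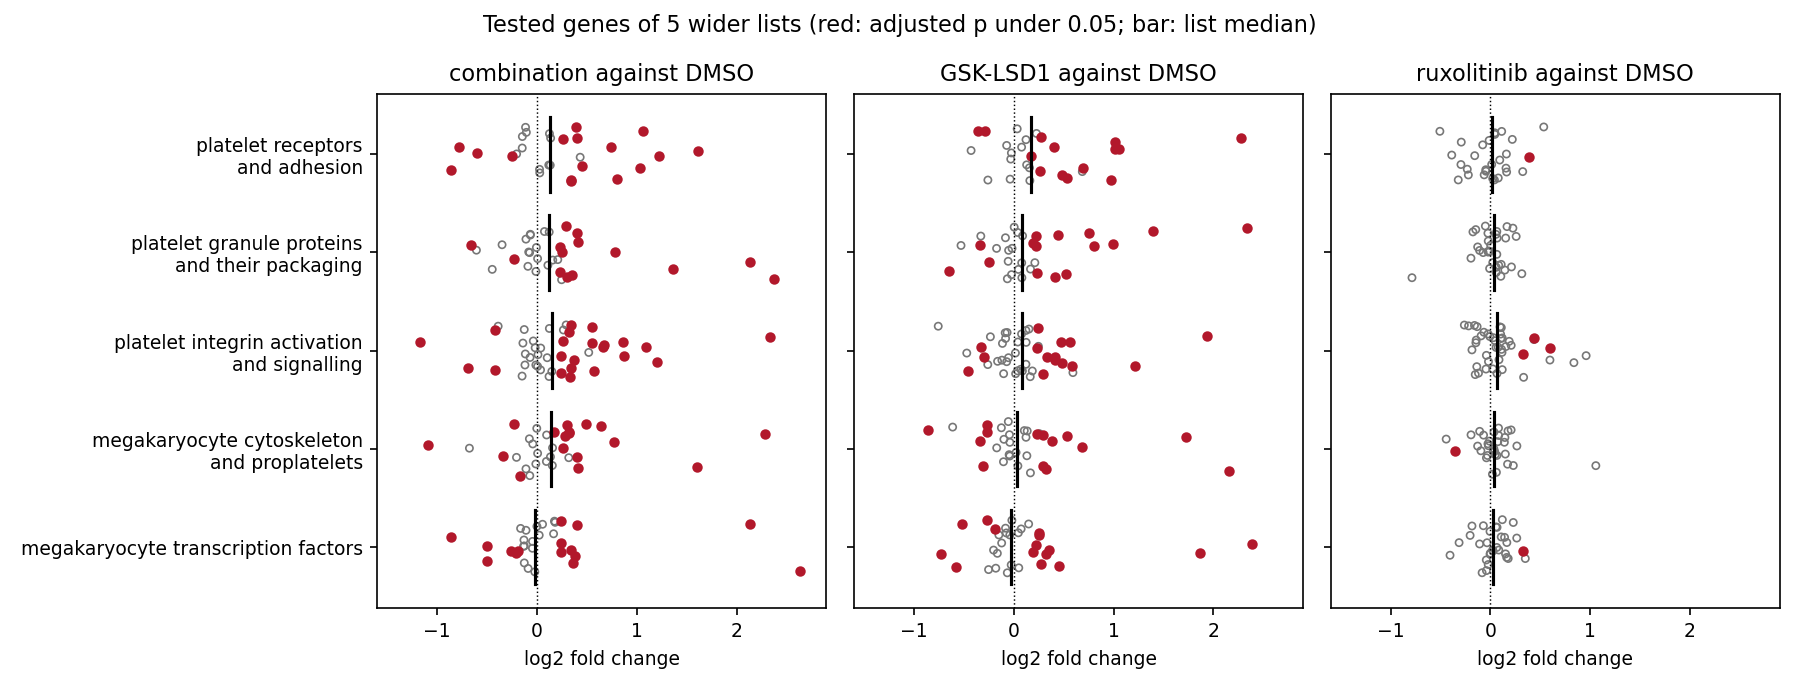
Log2 fold change against DMSO of the tested genes of 5 lists (rows) with the combination, GSK-LSD1 and ruxolitinib (panels). Red points passed at an adjusted p under 0.05, open points did not, and black bars are list medians; 64, 55 and 5 genes were higher and 20, 18 and 1 lower.

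Transcription factors of the lineage were well expressed. Gata2 stood at 6008 ± 189 normalised counts with the combination, 5938 ± 142 with GSK-LSD1, 5622.5 ± 401 with ruxolitinib and 5086 ± 151 with DMSO, and passed with the combination (0.24 ± 0.06, adjusted p = 0.00208) and GSK-LSD1 (0.22 ± 0.06, adjusted p = 0.00522). Gata1 was at 587 ± 32.6 with the combination, 555 ± 19.6 with GSK-LSD1, 707 ± 57.0 with ruxolitinib and 588 ± 33.7 with DMSO, and passed in no comparison with DMSO with all libraries. Higher Gata1 with ruxolitinib (0.26 ± 0.07, adjusted p = 0.0704) passed without combination replicate 3 (adjusted p = 0.0285) or ruxolitinib replicate 1 (adjusted p = 0.0378). Runx1 (2737 normalised counts with DMSO), Tal1 (1811) and Zfpm1 (1272), the GATA1 cofactor, passed in no comparison with DMSO with all libraries. Zfpm1 with GSK-LSD1 (-0.20 ± 0.10, adjusted p = 0.129) passed as lower without ruxolitinib replicate 2 (adjusted p = 0.0379). With all libraries Zfpm1 passed there after the GC correction (adjusted p = 0.00826), with the replicate block and GC correction (0.0120) and with only the groups compared (0.00128). With the combination, Zfpm1 was at -0.05 (adjusted p = 0.738) and passed as lower without ruxolitinib replicate 2 and combination replicate 3 (-0.15, adjusted p = 0.0433). Tal1 with the combination passed as lower after the GC correction (-0.14, adjusted p = 0.0161). Nfe2, which directs platelet release, had 1808 ± 126 with the combination against 1409.6 ± 60.3 with DMSO (0.36 ± 0.07, adjusted p = 0.000369), and 0.15 with each drug alone (adjusted p = 0.114 for GSK-LSD1 and 0.2703 for ruxolitinib). Without ruxolitinib replicate 2 and combination replicate 3 together, Nfe2 also passed with GSK-LSD1 (adjusted p = 0.0112). With all libraries Nfe2 passed there after quantile normalisation (adjusted p = 0.0376) and with only the groups compared (0.0113).

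Of 31 tested factors, 9 were higher and 6 lower with the combination (29% and 19.4%, against 20.5% and 21.8% of all genes). With GSK-LSD1 10 were higher and 5 lower (32.3% and 16.1%, against 17.0% and 15.5% of all genes). Without GSK-LSD1 replicate 2, 6 were higher with GSK-LSD1. The lower factors numbered 3 with GSK-LSD1 without GSK-LSD1 replicate 3 or DMSO replicate 1, and 3 with the combination without DMSO replicate 1 or 3. Without ruxolitinib replicate 2 and combination replicate 3, 8 were lower with GSK-LSD1. Gfi1b, the repressor that works with LSD1, changed by 2.63 ± 0.08 with the combination and 2.39 ± 0.08 with GSK-LSD1 on the log2 scale (adjusted p = 1.043e-15 and 7.816e-15). Its level was 4789 ± 384 normalised counts with the combination, 4040.2 ± 143 with GSK-LSD1, 968 ± 143 with ruxolitinib and 770.05 ± 54.9 with DMSO. Gfi1, its paralogue, rose by 2.13 ± 0.12 and 1.86 ± 0.12. Erg, an ETS factor close to Fli1, rose by 0.40 ± 0.08 and 0.35 ± 0.08 (adjusted p = 0.000266 and 0.00119). Lmo2, which bridges TAL1 and GATA factors, fell by 0.50 and 0.52 (adjusted p = 1.112e-05 and 1.305e-05).

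Markers of other blood cells moved with the same treatments. The sum of 17 mast cell and basophil markers was 75816 to 82936 normalised counts with the combination, 81571 to 85818 with GSK-LSD1, 67725 to 75330.2 with ruxolitinib and 62512 to 70013 with DMSO. It was led by Gzmb, at 52.0% of it, Cpa3 and Gata2. Of 15 tested, 10 were higher with the combination (66.7%, against 20.5% of all genes) and 11 with GSK-LSD1 (73.3%, against 17.0%), and none was lower. Mrgprb1 and Mrgprb2 were listed at 0. The sum of 16 stem and progenitor markers, 69.3% of it Gata2, was 8970.3 to 9089.5 with the combination, 8749 to 8886 with GSK-LSD1, 7315 to 7899.5 with ruxolitinib and 7025 to 7304 with DMSO. This list shares 4 genes, Gata2 among them, with the transcription factor list and 2, Gata2 and Kit, with the mast cell and basophil list. Of 9 tested, 4 were higher and 2 lower with the combination (44.4% and 22.2%, against 20.5% and 21.8% of all genes). With GSK-LSD1 5 were higher and 2 lower (55.6% and 22.2%, against 17.0% and 15.5% of all genes). The sum of 15 macrophage markers was 764 to 836 with the combination, 746 to 818 with GSK-LSD1, 519 to 532 with ruxolitinib and 538 to 578 with DMSO, and C1qb and Vcam1 were listed at 0. Cd14 made up 31.3% of that sum, and 9 of the 15 averaged under 10. Of 6 tested, 4 were higher with the combination (66.7%, against 20.5% of all genes) and 3 with GSK-LSD1 (50%, against 17.0%), and none was lower. The sum of 19 erythroid markers was 819 to 1183 with the combination and 775 to 889 with GSK-LSD1, against 1299.7 to 1477 with ruxolitinib and 1185 to 1345 with DMSO. Among 13 tested erythroid genes 8 were lower and 1 higher with the combination (61.5% lower, against 21.8% of all genes), and 6 were lower and 1 higher with GSK-LSD1 (46.2% lower, against 15.5%). The part of these cell types in the values of Itgb3 and of the wider lists was not tested.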

How the data were processed

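RNA was sequenced from 12 libraries, 3 per treatment. The deposited values are a normalised signal: read counts per gene, scaled per library by the authors, plus a constant of 1e-05. The constant was taken off, after which 100.0% of values lay within 0.01 of whole multiples of a library's step (0.9865 to 1.0274). The submitters' processing notes name STAR, DESeq2, mm10 and GRCm38, without versions or roles. Counting, annotation and strandedness are not given in the sources used here.

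Genes with a mean of at least 10 (11484 of 24411) were fitted as log2(value + 1) with limma 3.58.1 in R 4.3.3, with a mean per treatment, a variance trend and 8 residual degrees of freedom. The minimum was set on the mean over the 12 libraries, so a gene such as Src could pass it through the groups where it was high. Such genes are in the counts over lists and over all genes. Fold changes are on that log2 scale, which understates the change of low genes. P-values were adjusted by Benjamini-Hochberg over all genes of a comparison, with a threshold of 0.05. The procedure was tested on simulated data. Members and lists were chosen with earlier results of these data known. Besides the members and a set of genes fixed by name, up to 3 largest rises and falls per list among genes that passed could be named, and the text gives some of them. Some genes the rule named are not reported here. Genes were placed with GENCODE vM21 on GRCm38. Replicate numbers were not treated as pairs. Intervals and limits cover counting error or spread between libraries only.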

Additional observations from a re-analysis of the deposited data

How the results depend on the processing

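The tests of members with enough reads, the tests of named genes and the counts over all genes were recomputed with other pseudocounts (0.25, 5), no minimum or a mean of at least 50, median ratio scaling, quantile normalisation, a GC correction, a replicate block, no variance trend, only the groups compared, and without libraries. For the 8 genes, 42 values had 974 alternatives, of which 11 lost a call, 12 gained a call and 0 reversed a call. The 89 values of other genes had 2118 alternatives, with 109 calls lost, 18 gained and 0 reversed. Another 18 values, added after seeing the data, had 428 alternatives, with 0 calls lost, 20 gained and 0 reversed. Ratios, medians and likeness values were not recomputed, and Gp9 and Treml1 had no test. Members called moved to 2 without ruxolitinib replicate 2 and combination replicate 3 for the combination against DMSO (1 to 2 without single libraries), and in the F-test (1 to 3). For the combination against ruxolitinib 2 passed with quantile normalisation, the GC correction, the replicate block with GC correction, and without those 2 libraries (1 to 2 without single libraries). For GSK-LSD1 against ruxolitinib 1 passed with the replicate block with GC correction and with no variance trend (1 to 3 without single libraries). Without single libraries, 4025 to 5172 of all genes passed for the combination against DMSO and 4125 to 5327 in the F-test. For the combination and for GSK-LSD1 against ruxolitinib 2872 to 3833 and 1973 to 3529 did. Over all genes, ruxolitinib against DMSO gave 187 calls, but 98 with no minimum, 283 with the GC correction, 112 with the replicate block, 43 with no variance trend, 82 with only the groups compared, 317 without those 2 libraries and 32 to 551 without single libraries. The combination against GSK-LSD1 gave 161 calls, but 282 with the GC correction, 93 with no variance trend, 270 without those 2 libraries and 83 to 226 without single libraries. The interaction gave 1 call, but 0 with no minimum, quantile normalisation, the replicate block or no variance trend, 3 with the GC correction, 5 with the replicate block with GC correction, 3 without those 2 libraries and 0 to 2 without single libraries. The causes were not tested. After the treatment means were taken off, same-numbered libraries of different treatments correlated at -0.148 to 0.150 in 18 pairs, with 1 over 0.1. Libraries with different numbers correlated at -0.226 to 0.276 in 36 pairs, with 7 over 0.1, so the numbers were not read as pairing. The highest value, 0.276, was between combination replicate 3 and ruxolitinib replicate 2, the 2 libraries that stood apart on the second component. The counts for the wider lists without libraries were added after seeing the data. Values under about 3 reads were at the limit of depth.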
